A study of Mus musculus with 2 samples.

Results

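The enzymes that make prostaglandin E2, the leukotrienes and histamine were examined in tumor-associated neutrophils (TANs) of Smad3-WT and Smad3-KO mice. The 8 genes were Ptgs1, Ptgs2, Ptges, Alox5, Alox5ap, Lta4h, Ltc4s and Hdc, taken by symbol as 8 of the 31053 rows of the deposited matrix, and each had UMIs (unique molecular identifiers, 1 per captured RNA molecule) in both libraries. Each genotype was 1 single-cell RNA library of CD11b+Ly6G+ cells, sorted by flow cytometry from subcutaneous Lewis lung carcinoma (LLC) tumors and pooled from 8 tumors. Smad3-WT hosts were C57BL/6 mice with both Smad3 alleles (Smad3+/+), and Smad3-KO hosts were C57BL/6 mice lacking Smad3 in every tissue (Smad3-/-), and the methods name the background of both as C57BL/6 J. Both were 8 to 12 weeks old. Both groups carried the same LLC cells, whose own Smad3 gene was not targeted. With 1 library per genotype there was no replicate and no test of genotype. Every interval below is an exact 95% interval and covers counting error only.

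Prostaglandin synthesis starts when arachidonic acid, freed from membrane lipid, is turned into prostaglandin H2 by a cyclooxygenase. Ptgs1 encodes the constitutive and Ptgs2 the inducible cyclooxygenase, and Ptges encodes the microsomal synthase that makes prostaglandin E2 from prostaglandin H2. Leukotriene synthesis uses the same fatty acid. The 5-lipoxygenase Alox5, helped by its membrane partner Alox5ap, makes leukotriene A4, from which the hydrolase Lta4h makes leukotriene B4, a neutrophil attractant, and the synthase Ltc4s makes leukotriene C4. Hdc, histidine decarboxylase, makes histamine from histidine. Mast cells and basophils are the best known histamine makers, and neutrophils and other myeloid cells can also express Hdc.

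In GRCm38 coordinates, Ptgs1 lies on the plus strand at chr2:36230426-36252272, Ptgs2 on the plus strand at chr1:150100031-150108227 and Ptges on the minus strand at chr2:30889471-30929863. Alox5 lies on the minus strand at chr6:116410077-116461178, Alox5ap on the plus strand at chr5:149264767-149288153, Lta4h on the plus strand at chr10:93453411-93484875, Ltc4s on the minus strand at chr11:50236461-50238616 and Hdc on the minus strand at chr2:126593667-126619299. Alox5ap is overlapped by the antisense gene Gm19719, which had 2 and 0 UMIs in the Smad3-WT and Smad3-KO libraries, and Ltc4s by the antisense gene Gm26542, which had 9 and 4. The 250 bases before the start site were found in the RefSeq promoter table (GRCm38.p6) for 7 of the 8 genes. Windows of Ptgs2 and Hdc are shown because these genes had the most similar pattern over cell clusters of any pair of the 8, and that of Ptges because its ratio between the libraries was the farthest from 1 of the 8 in neutrophil-like cells. Capitals mark matches to CAGAC on either strand (read as GTCTG on the minus strand), the core of the sequence that Smad3 is known to bind, and to TTNNGCAA on either strand, a sequence of the C/EBP family. The windows are, for Ptgs2, chr1:150099781-150100030 on the plus strand, for Hdc, chr2:126618679-126618928 on the minus strand, and for Ptges, chr2:30903298-30903547 on the minus strand. The starts of Hdc and Ptges in that table lie inside the genes' annotated spans.
Ptgs2: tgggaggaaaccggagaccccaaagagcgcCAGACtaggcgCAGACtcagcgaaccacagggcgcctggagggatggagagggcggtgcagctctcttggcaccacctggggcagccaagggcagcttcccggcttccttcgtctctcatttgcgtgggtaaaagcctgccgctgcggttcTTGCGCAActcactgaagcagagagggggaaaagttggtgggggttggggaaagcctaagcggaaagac
Hdc: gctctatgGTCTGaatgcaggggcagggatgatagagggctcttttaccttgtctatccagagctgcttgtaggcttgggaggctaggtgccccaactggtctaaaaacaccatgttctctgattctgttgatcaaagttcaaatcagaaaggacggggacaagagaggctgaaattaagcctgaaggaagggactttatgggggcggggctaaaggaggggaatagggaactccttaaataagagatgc
Ptges: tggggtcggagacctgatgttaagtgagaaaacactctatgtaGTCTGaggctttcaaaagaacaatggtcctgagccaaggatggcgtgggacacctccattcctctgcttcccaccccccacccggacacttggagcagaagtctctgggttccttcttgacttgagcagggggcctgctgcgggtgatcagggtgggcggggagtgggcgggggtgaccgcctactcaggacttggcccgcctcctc
The Ptgs2 window held CAGAC 2 times and the C/EBP letters once, 69 to 62 bases before the start. The windows of Hdc and Ptges held CAGAC once each. CAGAC was in 5 of the 7 windows (also those of Ptgs1 and Lta4h) and in 42.2% of all 32851 promoters, while TTNNGCAA was in 1 of 7 and in 9.56% of all. A further 5 motifs, searched on both strands, were in 0 of the 7 windows. The letters TATAAA were in 12.4% of all promoters, the cyclic AMP response letters TGACGTCA in 1.55%, the AP-1 letters TGANTCA in 6.75%, the E-box letters CACGTG in 6.02% and an NF-κB motif in 1.41%. These matches describe the letters and are not binding sites.

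The quality filter kept 3520 of 4116 Smad3-WT barcodes (12176201 UMIs, median 1318.5 per cell) and 2433 of 2514 Smad3-KO barcodes (4146792 UMIs, median 1199). Louvain clustering, run without the 8 genes and their pathway among the variable genes, gave 9 clusters that were named from cell type markers. Although both libraries were sorted for neutrophils, neutrophil-like cells were 52.1% and 44.8% of the Smad3-WT and Smad3-KO libraries, macrophage or monocyte-like cells 30.5% and 4.44%, B cell-like cells 0.0852% and 23.4%, and T or NK-like cells 1.76% and 19.0%. The female transcript Xist stood at 0.657 and 471 counts per 1000000 UMIs (CPM) and Y-linked genes at 128 and 17.1 CPM in the Smad3-WT and Smad3-KO libraries, so the sex of the pooled hosts and the genotype cannot be told apart. The 2 libraries shared 73 barcode sequences. The Smad3-KO allele lacks exon 8, so UMIs of Smad3 in this 5′ assay do not check it. LLC carcinoma-like cells of the Smad3-KO library (33 cells) had few carcinoma UMIs and were not compared.

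The neutrophil-like class held 3 clusters of unequal makeup, which bears on every comparison of it. Cluster 1 (1810 Smad3-WT and 171 Smad3-KO cells) had the neutrophil markers Mmp9, Il1r2, G0s2 and Cxcr2 among its top 10 genes. Cluster 3 (25 Smad3-WT and 853 Smad3-KO cells) had Stfa2, Csf3, Il1a and Lcn2 among its top 10 genes and none of the 9 neutrophil markers. Even so, 7 of these 9 markers met the naming rule in cluster 3, beside 8 in cluster 1. Of 6 immature granulocyte markers, 1 met it in cluster 3. Cluster 9 (0 Smad3-WT and 66 Smad3-KO cells) was led by Camp, Ngp and Ltf, granule genes of an earlier stage of the same lineage. Most Smad3-WT cells of the class were thus in cluster 1 and most Smad3-KO cells in cluster 3, and values by cluster are given beside those of the class for the 8 genes, but not for the other pathway genes.

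Neutrophil-like cells carried most of the RNA for Hdc and Ptgs2 in both libraries, as the plot of levels by class shows. They held 69.6% of Smad3-WT and 82.9% of Smad3-KO UMIs of Ptgs2, and 75.8% and 85.4% of those of Hdc. Alox5 had 51.8% and 79.6% of its UMIs there. Most Smad3-WT UMIs of the other members lay elsewhere. Alox5ap had 68.8% of its Smad3-WT UMIs in macrophage or monocyte-like cells, Ltc4s 75.0%, and Ptges had 93.2% of its Smad3-WT UMIs in LLC carcinoma-like cells. In Smad3-KO, neutrophil-like cells held 59.2% of Alox5ap and 43.8% of Ptges UMIs. Ltc4s had 47.1% of its Smad3-KO UMIs in dendritic-like and 33.8% in macrophage or monocyte-like cells.

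**Figure D1:**
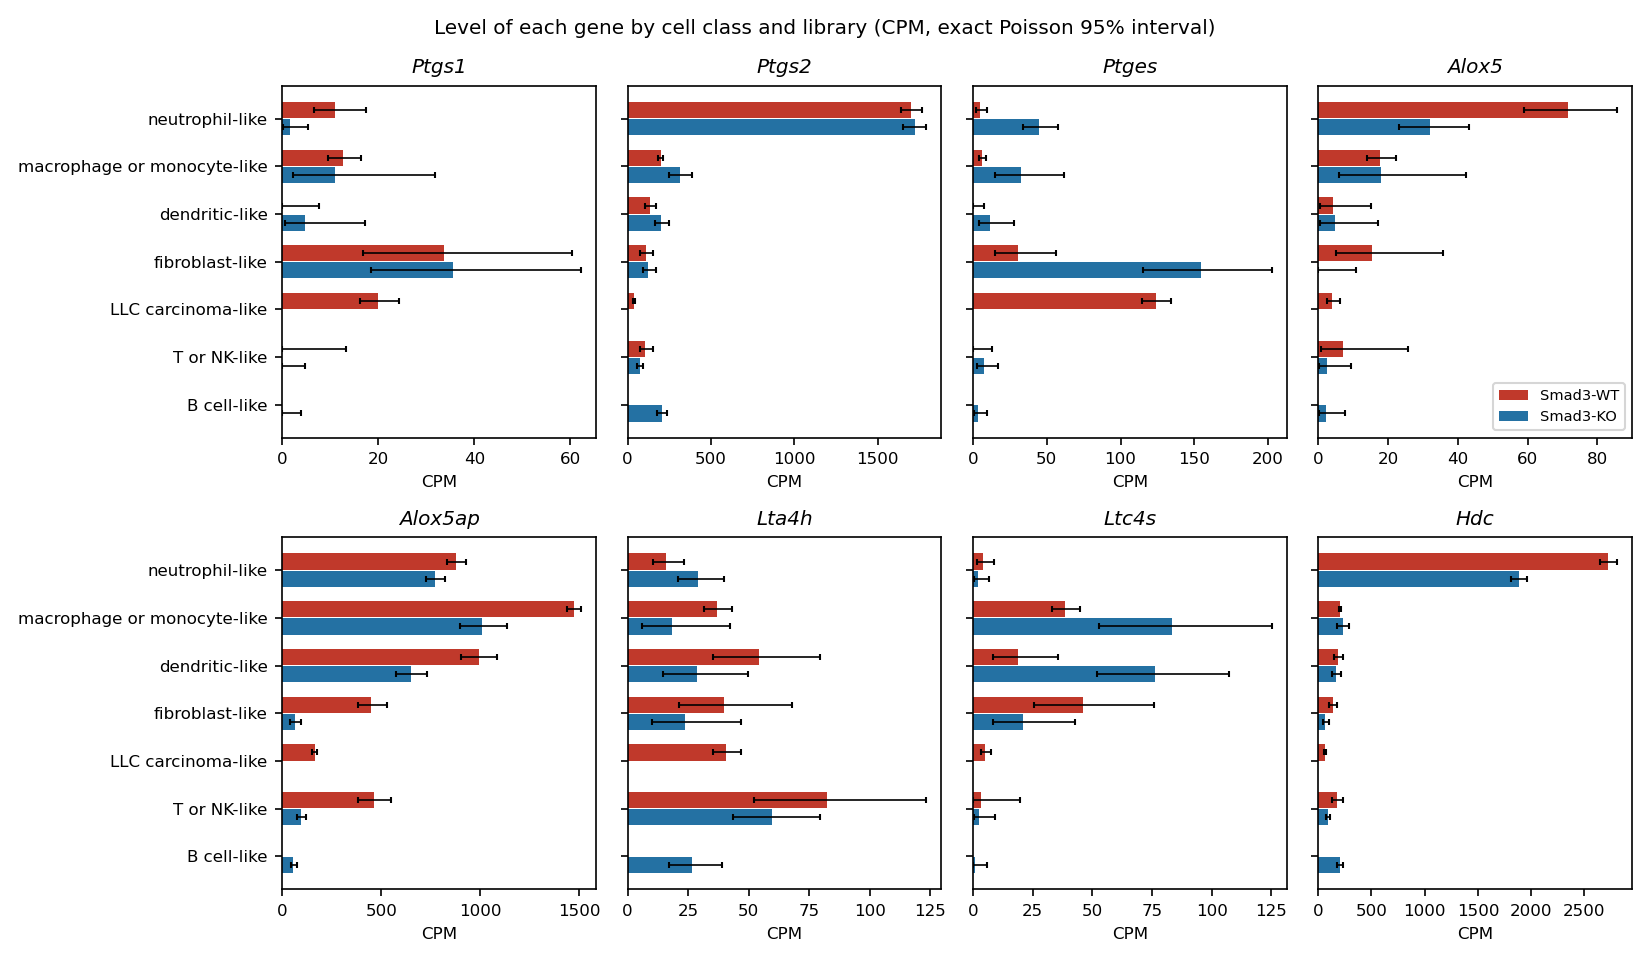
Level of each gene (horizontal axis, CPM, a separate linear scale per gene) in each cell class (vertical axis) of the Smad3-WT (red) and Smad3-KO (blue) library; bars are levels, black lines exact Poisson 95% intervals, and classes under 40 cells in a library have no bar. Ptgs2 and Hdc are highest in neutrophil-like cells of both libraries, Ptges in LLC carcinoma-like Smad3-WT cells (124 CPM) and fibroblast-like Smad3-KO cells (154 CPM), and Ltc4s in macrophage or monocyte-like and dendritic-like Smad3-KO cells.

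Ptgs2, the inducible cyclooxygenase, was expressed at nearly the same level in neutrophil-like cells of both genotypes. Its Smad3-WT level was 1702 CPM (interval 1639.8 to 1767, 2787 UMIs) and its Smad3-KO level 1721 CPM (1651 to 1792, 2305 UMIs), a Smad3-KO over Smad3-WT ratio of 1.01 (0.956 to 1.07). Among 4051 genes with at least 50 UMIs in these cells, the median ratio was 0.802, so Ptgs2 stood above the middle of the genes. By cluster, the level was 1705 CPM in cluster 1 of Smad3-WT, 1572 CPM in cluster 1 of Smad3-KO and 1939 CPM in cluster 3 of Smad3-KO. It was lowest in cluster 9, at 419 CPM. A neutrophil-like cell with Ptgs2 held a median of 2 UMIs in each library, and up to 21 in Smad3-WT and 17 in Smad3-KO.

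Ptges, the next enzyme on the way to prostaglandin E2, was rare in Smad3-WT neutrophil-like cells and higher in those of Smad3-KO. It had 8 UMIs in 8 of 1835 cells (4.89 CPM, 2.11 to 9.63) against 60 UMIs in 46 of 1090 cells (44.8 CPM, 34.2 to 57.7), a ratio of 9.17 (4.37 to 22.2). Of the 60 UMIs, 59 were in cluster 3, where the level was 56.0 CPM. In cluster 1 the 8 Smad3-WT UMIs gave 4.95 CPM, and Smad3-KO had 0. The 25 Smad3-WT cells of cluster 3 also had 0, which at their depth allows up to 143 CPM, so within a cluster the libraries could not be told apart for Ptges. Markers of carcinoma cells and fibroblasts, the other classes with much Ptges, were at or near 0 in cluster 3 of Smad3-KO. There, 6 of 6 carcinoma markers had 0 UMIs, but they had only 104 UMIs over all Smad3-KO cells, so their absence says little. The fibroblast markers had 35 UMIs (33.2 CPM) over 6 genes, with Pdgfra and Lum at 0. Fibroblast markers stood in neutrophil-like Smad3-KO cells at a median of 0.000405 times their level in fibroblast-like cells (0 to 0.000601), while Ptges stood at 0.290 times. In the Smad3-WT library the quotient of Ptges to its level in carcinoma-like cells was 0.0394, beside 0.0122 to 0.0343 for 5 carcinoma markers. The part of free RNA or mixed droplets in these Ptges levels was not tested in either library.

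Ptgs1, the constitutive cyclooxygenase, had few UMIs in neutrophil-like cells, 18 against 2 (10.995 CPM, 6.52 to 17.4, in Smad3-WT and 1.49 CPM, 0.181 to 5.39, in Smad3-KO). Its ratio was 0.136 (0.0153 to 0.567), and it had too few UMIs in this class to be counted with the genes of at least 50. All 18 Smad3-WT UMIs were in cluster 1, and the Smad3-KO UMIs were 0 in cluster 1, 1 in cluster 3 and 1 in cluster 9.

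Alox5 and Alox5ap, which act together in the first step of leukotriene synthesis, were both lower in Smad3-KO neutrophil-like cells, by unequal amounts. Alox5 stood at 71.5 CPM (59.1 to 85.7, 117 UMIs) in Smad3-WT and 32.1 CPM (23.2 to 43.2, 43 UMIs) in Smad3-KO, a ratio of 0.449 (0.309 to 0.642). Alox5ap stood at 879.6 CPM (835 to 926) and 773 CPM (726 to 821), a ratio of 0.878 (0.810 to 0.952), which lies above the median of all genes and turns to 1.09 when levels are scaled to that median. The levels of both genes differed between clusters. Alox5 stood at 72.4 and 80.6 CPM in cluster 1 of Smad3-WT and Smad3-KO, at 13.3 CPM in cluster 3 of Smad3-KO and at 117 CPM in cluster 9, whose interval (70.4 to 183) overlapped those of cluster 1. For Alox5ap these levels were 879.9, 1362, 504 and 2062 CPM. Within cluster 1 the Alox5 ratio was 1.11 (0.520 to 2.12) and the Alox5ap ratio 1.55 (1.31 to 1.82), so Alox5ap was higher in Smad3-KO in that cluster and lower in the class as a whole.

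Lta4h, which makes leukotriene B4, was a little higher in Smad3-KO neutrophil-like cells, at 29.1 CPM (20.7 to 39.8, 39 UMIs) against 15.9 CPM (10.4 to 23.3, 26 UMIs), a ratio of 1.83 (1.09 to 3.14). Cluster 9, present in Smad3-KO alone, held 28 of the 39 UMIs at 172 CPM. The level was 15.5 CPM in cluster 1 of Smad3-WT and 9.50 CPM in cluster 3 of Smad3-KO, and without cluster 9 the ratio was 0.588. Ltc4s, which makes leukotriene C4, had 7 and 3 UMIs in neutrophil-like cells of the 2 libraries, a ratio of 0.524 (0.0874 to 2.29), too few to show a difference in either direction. The 7 were in cluster 1 and the 3 in cluster 3.

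Hdc, the histamine-forming enzyme, was high in neutrophil-like cells of both genotypes and lower in Smad3-KO. It stood at 2726 CPM (2646 to 2807, 4462 UMIs) in Smad3-WT and 1888 CPM (1815 to 1963, 2529 UMIs) in Smad3-KO, a ratio of 0.693 (0.659 to 0.727). The level was 2722 CPM in cluster 1 of Smad3-WT, 2918 CPM in cluster 1 of Smad3-KO, 1935 CPM in cluster 3 of Smad3-KO and 794 CPM in cluster 9. Within cluster 1 the ratio was 1.07 (0.961 to 1.19). Within cluster 3, where Smad3-WT had 25 cells and 63 Hdc UMIs (3000.3 CPM), it was 0.645 (0.502 to 0.843). Mast cell and basophil markers were nearly absent from these cells. Of 9 markers, 8 (Cpa3, Mcpt8, Ms4a2, Fcer1a, Gata2, Tpsb2, Cma1 and Prss34) were at 0 in neutrophil-like cells of both libraries, and Kit had 4 and 2 UMIs. The eosinophil markers had 49 and 8 UMIs, mostly Siglecf in Smad3-WT (39 UMIs), with Epx at 0 in both.

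**Figure D2:**
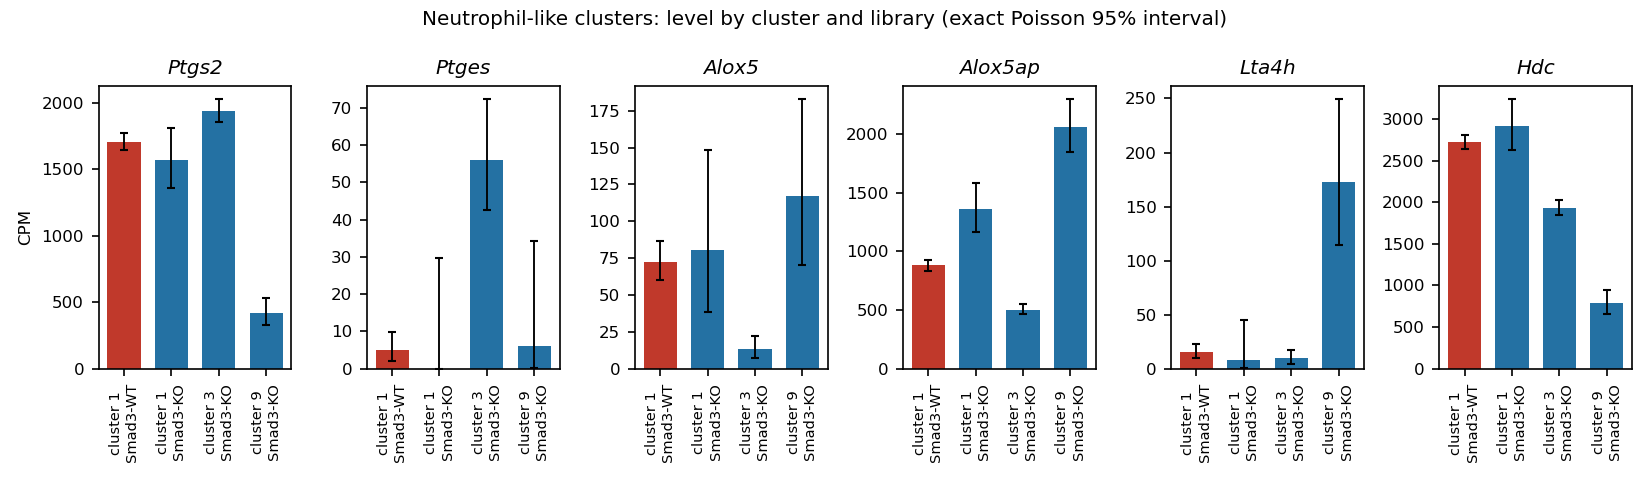
Level of 6 genes (vertical axis, CPM, a separate linear scale per gene, exact Poisson 95% interval as black lines) in the neutrophil-like clusters, with red for Smad3-WT and blue for Smad3-KO, without Ptgs1, Ltc4s and the 25 Smad3-WT cells of cluster 3. Ptges is seen almost only in cluster 3 of Smad3-KO (56.0 CPM), while Alox5, Alox5ap and Lta4h are highest in cluster 9 of Smad3-KO (117, 2062 and 172 CPM).

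Of the 8 genes, 6 had at least 50 UMIs over both libraries in neutrophil-like cells. Of these, 1 (Ptges) was at least 2-fold higher and 1 (Alox5) at least 2-fold lower in Smad3-KO, beside 7.83% of all 4051 such genes higher and 15.5% lower. Their median ratio was 0.945 and that of all such genes 0.802. A count of 1 in 6 in each direction is close to this background. The median of all genes in these cells was thus shifted by -0.32 on the log2 scale. Scaled to it, the ratio was 1.26 for Ptgs2 and 0.863 for Hdc, and 2 members were at least 2-fold higher and 0 at least 2-fold lower.

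In macrophage or monocyte-like cells (1074 Smad3-WT and 108 Smad3-KO cells) the summed levels of Ptgs2 and Ptges were higher in Smad3-KO and that of Alox5ap was lower. The Ptgs2 direction depended on the settings, and the shares of cells with Ptgs2 or Ptges were similar in the 2 libraries. Ptgs2 stood at 198 CPM (185 to 211) in Smad3-WT and 312 CPM (249.5 to 385) in Smad3-KO, a ratio of 1.58 (1.25 to 1.97). Ptges UMIs came from few cells, 27 from 23 cells of Smad3-WT and 9 from 3 cells of Smad3-KO, at 6.01 and 32.6 CPM, a ratio of 5.43 (2.25 to 11.9). Alox5ap, highest in this class among the classes of each library, stood at 1475 CPM (1440.0 to 1511) and 1012 CPM (897 to 1138), a ratio of 0.686 (0.606 to 0.773). In Smad3-KO its level was higher in clusters 9 and 1 of the neutrophil-like class (2062 and 1362 CPM), and lower in cluster 3 (504 CPM). Ltc4s was at 38.7 CPM (33.2 to 44.9, 174 UMIs) and 83.4 CPM (52.9 to 125, 23 UMIs), a ratio of 2.15 (1.33 to 3.34). This Ltc4s ratio depended on the settings, at 1.18 with no upper limit on UMIs, 1.03 with another filter or another seed of the clustering and 6.22 with cells thinned to 500 UMIs. The ratios of Ptgs1 (0.858, 0.172 to 2.64), Alox5 (1.02, 0.322 to 2.48), Lta4h (0.491, 0.157 to 1.17) and Hdc (1.12, 0.853 to 1.45) had intervals that held 1. Of 7 members with at least 50 UMIs here, 1 (Ltc4s) was at least 2-fold higher and 1 (Lta4h, on 5 Smad3-KO UMIs) at least 2-fold lower, beside 9.15% and 10.7% of 7161 genes. The members' median ratio was 1.02 and that of all genes 1.01. Of 6 platelet markers in this class, with a Smad3-WT sum of 2415 UMIs and a Smad3-KO sum of 0, nearly all UMIs were Ppbp, while Gp9, Gp1bb and Gp6 were at 0 in both libraries. The part of Ppbp-bearing RNA in these ratios was not tested. With 30 in place of 100 principal components the Ptgs2 ratio turned to 0.910, and the counts of members past 2-fold changed under several settings given in the closing section.

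**Figure D3:**
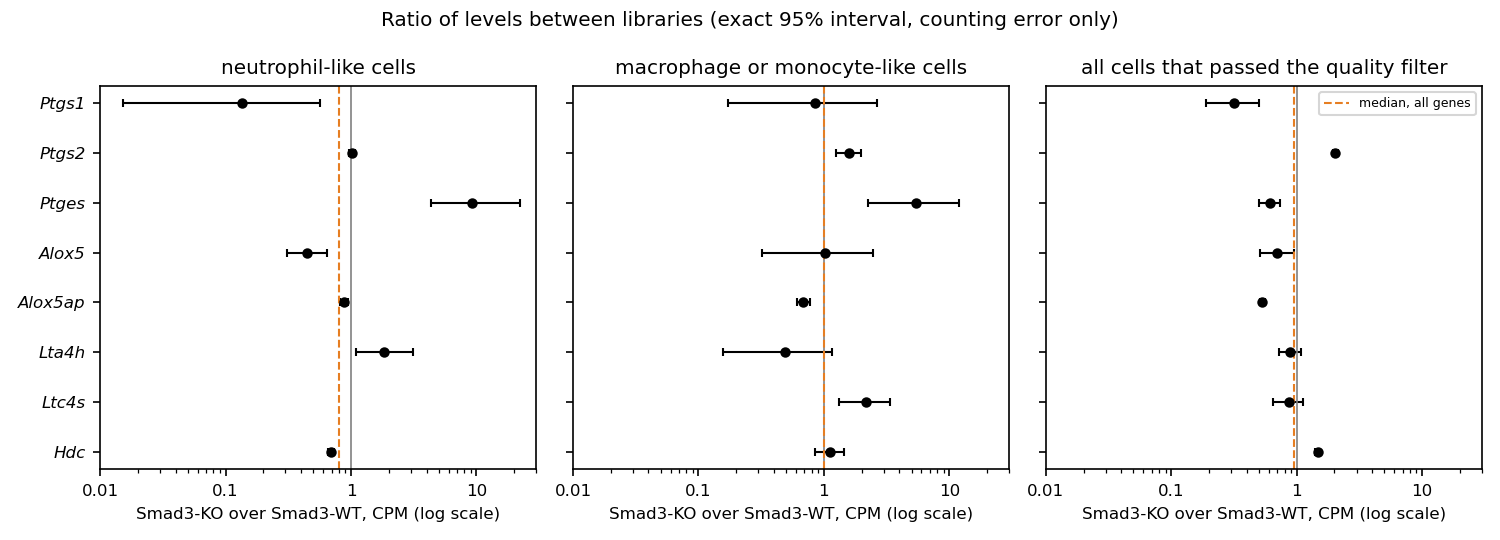
Smad3-KO over Smad3-WT ratio of CPM (horizontal axis, log scale) in neutrophil-like cells, macrophage or monocyte-like cells and all cells that passed the quality filter, with exact 95% intervals. Genes with under 20 UMIs over both libraries have no point, which leaves out Ltc4s in neutrophil-like cells. The grey line marks equal levels and the dashed line the median of all genes with at least 50 UMIs. Ptges is to the right in both named classes (9.17 and 5.43) and to the left over all cells (0.610), and Hdc is to the left in neutrophil-like cells (0.693) and to the right over all cells (1.48).

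Over all cells of each library that passed the quality filter, without classes, several genes had another order than within the classes. Ptgs2 stood at 329 and 670.4 CPM, a ratio of 2.04 (1.94 to 2.14), and Hdc at 484 and 714 CPM, a ratio of 1.48 (1.41 to 1.54). Neutrophil-like cells, in which the ratios were 1.01 and 0.693, held 13.4% of Smad3-WT and 32.3% of Smad3-KO UMIs. Ptges had the opposite order, at 54.2 and 33.0 CPM (0.610, 0.503 to 0.734), with carcinoma-like cells at 40.7% and 1.36% of the UMIs. Alox5ap stood at 791 and 421 CPM (0.533, 0.506 to 0.561) and Ptgs1 at 15.2 and 4.82 CPM (0.317, 0.189 to 0.505). The ratio was 0.702 (0.511 to 0.948) for Alox5, 0.889 (0.729 to 1.08) for Lta4h and 0.861 (0.647 to 1.13) for Ltc4s. All 8 members had at least 50 UMIs, of which 1 (Ptgs2) was at least 2-fold higher and 1 (Ptgs1) at least 2-fold lower in Smad3-KO, beside 13.5% and 14.2% of 10925 genes. The members' median ratio was 0.781 and that of all genes 0.959. With the mean over cells in place of summed UMIs, the ratios of Ptgs2, Hdc and Ptges turned to 0.892, 0.625 and 1.52.

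Outside these 2 classes, Ptges was found mainly in LLC carcinoma-like and fibroblast-like cells. LLC carcinoma-like cells of Smad3-WT held 615 Ptges UMIs at 124 CPM (114 to 134), in 67.6% of 398 cells. Fibroblast-like cells stood at 30.6 CPM (14.7 to 56.3, 10 UMIs in 48 cells) in Smad3-WT and 154 CPM (115 to 202, 52 UMIs in 61 cells) in Smad3-KO, a ratio of 5.04 (2.54 to 11.1). The ratio was thus above 1 in the neutrophil-like, macrophage or monocyte-like and fibroblast-like classes, on 60 Smad3-KO UMIs that lay almost all in cluster 3, 9 UMIs from 3 cells, and 52 UMIs from 32 cells. Ptgs1 was at 33.7 and 35.6 CPM in fibroblast-like cells, on 11 and 12 UMIs, above its level in neutrophil-like cells in each library. In Smad3-WT the order of its levels was fibroblast-like, LLC carcinoma-like (19.98 CPM), macrophage or monocyte-like (12.7 CPM) and neutrophil-like cells, and each interval overlapped that of the next class.

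Leukotriene genes outside neutrophil-like cells were spread over myeloid, lymphoid, carcinoma-like and fibroblast-like cells. LLC carcinoma-like cells held 44.3% of the Smad3-WT UMIs of Lta4h (202 UMIs, 40.8 CPM). Among Smad3-WT classes, Ltc4s was highest in fibroblast-like cells (45.9 CPM, 25.7 to 75.7, 15 UMIs), whose interval overlapped that of macrophage or monocyte-like cells. Alox5ap in dendritic-like cells stood at 992 CPM (905 to 1085) and 651 CPM (577 to 733), a ratio of 0.657 (0.564 to 0.763), and in fibroblast-like cells at 450.0 CPM (380.2 to 529) and 62.3 CPM (38.6 to 95.3), a ratio of 0.139 (0.0833 to 0.220). Its level was lower in Smad3-KO in the neutrophil-like, macrophage or monocyte-like, dendritic-like and fibroblast-like classes. The fibroblast-like levels were no higher than those in T or NK-like cells (461 and 94.6 CPM), and the part of free RNA in them was not tested. In T or NK-like cells the ratio was 0.205 (0.152 to 0.275). Relative to macrophage or monocyte-like cells, these levels lay inside the wide range of macrophage or monocyte markers given below and above their medians. Macrophage or monocyte-like cells were more frequent in Smad3-WT, and the part of free RNA in this ratio was not tested. Ltc4s in dendritic-like cells stood at 18.7 CPM (9 UMIs) and 76.1 CPM (32 UMIs), a ratio of 4.06 (1.90 to 9.68). Lta4h was highest in T or NK-like cells, at 82.2 CPM (52.1 to 123) in Smad3-WT and 59.6 CPM (43.6 to 79.5) in Smad3-KO, among classes with at least 40 cells. In Smad3-WT this interval overlapped that of dendritic-like cells (54.1 CPM, 35.3 to 79.2), the next class in order. Cluster 9 of the neutrophil-like class, in Smad3-KO alone, stood higher for Lta4h, at 172 CPM (115 to 249). Alox5 outside neutrophil-like cells reached 17.8 CPM in macrophage or monocyte-like cells of Smad3-WT and 18.1 CPM in those of Smad3-KO.

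Low levels of Ptgs2 and Hdc in other classes were set beside those of the neutrophil markers in the same cells. In T or NK-like cells, 9 neutrophil markers stood at a median of 0.0564 times (0.0240 to 0.273) their level in neutrophil-like cells in Smad3-WT and 0.0453 times (0.0221 to 0.0823) in Smad3-KO. Ptgs2 stood at 0.0630 and 0.0422 times and Hdc at 0.0656 and 0.0480 times, inside these ranges. Lta4h, at 5.18 and 2.05 times, was outside them. Alox5ap, at 0.524 and 0.122 times, was above the neutrophil markers. Relative to macrophage or monocyte-like cells it stood at 0.313 and 0.0935 times. This was inside the wide range of 12 macrophage or monocyte markers (0.0833 to 1.36 and 0.0117 to 0.600) but above their medians (0.192 and 0.0400). In macrophage or monocyte-like cells the markers stood at 0.0754 times (0.0588 to 0.378) and 0.0907 times (0.0545 to 0.196), with Ptgs2 at 0.116 and 0.181 times and Hdc at 0.0749 and 0.121 times, again inside. In B cell-like cells of Smad3-KO, Ptgs2 at 0.119 times and Hdc at 0.108 times were just above the highest of the markers (0.0159 to 0.105). The part of free RNA or mixed droplets in these levels, and in the Ptgs2 ratio of macrophage or monocyte-like cells, was not tested.

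A share of cells with a UMI depends on the depth per cell, which differed between the libraries. Neutrophil-like cells of Smad3-WT had a median of 741 UMIs and those of Smad3-KO 1016.5, and T or NK-like cells, set beside them below, 3372 and 1348. Ptgs2 was found in 55.9% (53.6 to 58.2) of Smad3-WT and 64.4% (61.5 to 67.2) of Smad3-KO neutrophil-like cells as counted. With each cell thinned to 500 UMIs the shares were 44.5% and 47.5%, beside 1.61% and 1.30% of T or NK-like cells. Hdc was found in 70.1% and 71.5% as counted and in 59.5% and 52.3% when thinned, beside 9.68% and 3.03% of T or NK-like cells. Alox5ap had 44.3% and 41.3% as counted and 32.3% and 23.9% when thinned, and Alox5 6.05% and 3.21% as counted and 4.03% and 1.28% when thinned. For Ptges the thinned shares were 0.327% and 1.56%.

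**Figure D4:**
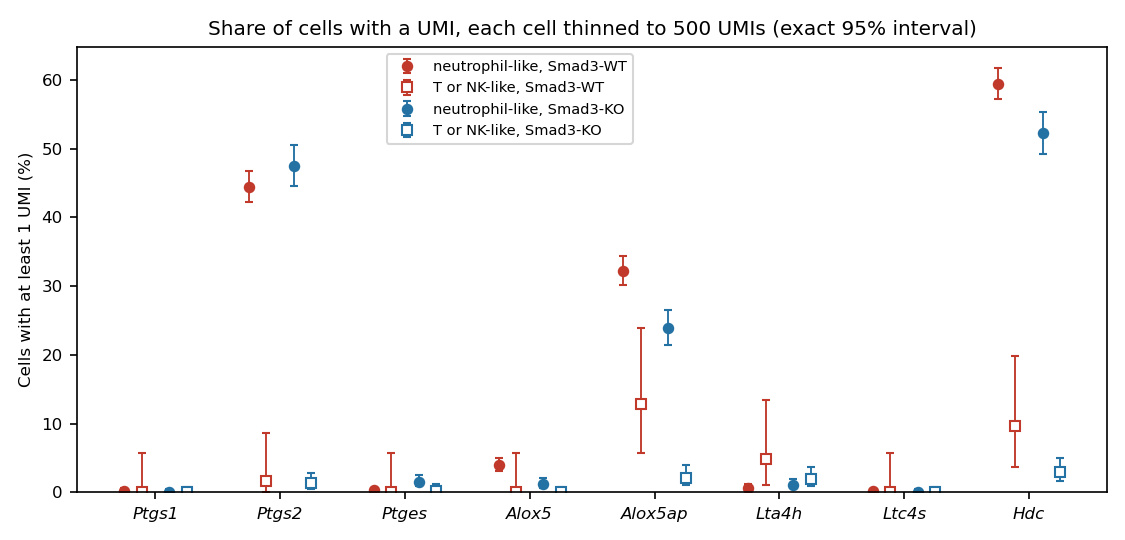
Share of cells with at least 1 UMI of each gene (vertical axis, percent) after each cell was thinned to 500 UMIs, for neutrophil-like cells (filled circles) and T or NK-like cells (open squares) with red for the Smad3-WT and blue for the Smad3-KO library and exact 95% intervals. Hdc is found in 59.5% and 52.3% and Ptgs2 in 44.5% and 47.5% of neutrophil-like cells, well above T or NK-like cells of the same library.

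Ptgs2 and Hdc were found in the same neutrophil-like cells a little more often than their shares alone would give. At 500 UMIs per cell, 29.97% (27.9 to 32.1) of Smad3-WT cells held both, against a product of the 2 shares of 26.4%. In Smad3-KO, 27.8% (25.2 to 30.6) held both against a product of 24.9%. Ptgs2 and Alox5ap were found together in 14.6% of Smad3-WT cells against a product of 14.3%, and in 9.36% (7.69 to 11.2) of Smad3-KO cells against 11.4%. Alox5 and its partner Alox5ap were found together in 1.85% (1.29 to 2.58) of Smad3-WT cells against 1.30%. The products take the class as 1 group, but its clusters had unequal shares. In clusters 1, 3 and 9 of Smad3-KO these were 41.5%, 51.5% and 12.1% for Ptgs2 and 64.9%, 51.0% and 36.4% for Hdc. The part of this pooling in the joint shares was not tested.

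The authors' averages for 13 clusters, made from cells without a filter and given with no error, were a second grouping of the same cells. Their numbers are the authors' own and do not match the cluster numbers used above, and each is called by the marker list that leads it. The averages of Hdc were highest in clusters 6 and 1, both led by neutrophil markers (4.73 and 4.08), and those of Ptgs2 in clusters 3, 6 and 1 (2.77, 2.41 and 2.38). Cluster 3 stays unnamed, and its average for the neutrophil gene Csf3r was 0.941. Ptges was highest in clusters 11 and 2, led by LLC carcinoma markers (0.214 and 0.202, the second with as many fibroblast markers), and next in cluster 3 (0.0872). Alox5 and Lta4h were highest in cluster 10 (0.181 and 0.104), in which neutrophil and immature granulocyte markers were equal in number. Lta4h was next in the T or NK cluster 9 (0.0932). Alox5ap was highest in the macrophage cluster 5 (2.09), close to cluster 10 (2.02). Ltc4s was highest in macrophage cluster 12 (0.135) and dendritic cluster 13 (0.101), and Ptgs1 in clusters 10 and 12 (0.0453 and 0.0432).

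**Figure D5:**
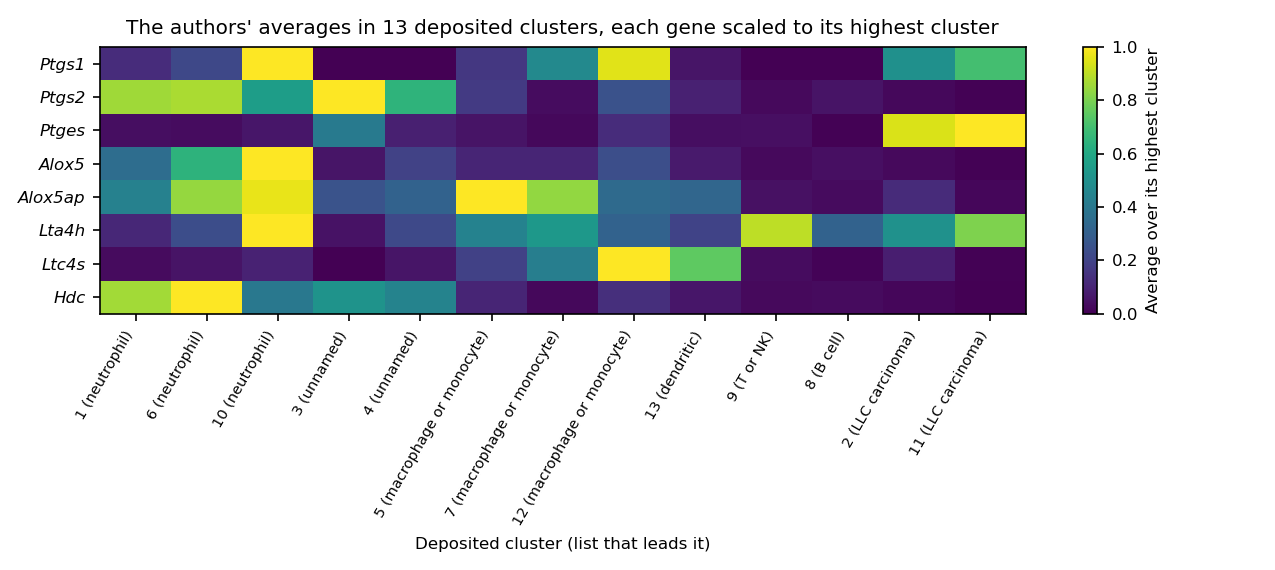
The authors' average of each gene (rows) in their 13 clusters (columns, the authors' numbers with the marker list that leads each), shown as a share of the gene's highest average by colour. Ptgs2 and Hdc are high in the same clusters 1, 3, 4, 6 and 10, whereas Ptges is highest in clusters 11 and 2.

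Over these 13 averages, on a log2(average + 0.01) scale, Ptgs2 and Hdc ran together with a Pearson r of 0.988, the highest of the 28 pairs of members. Alox5 and Hdc came next (0.788), then Ptgs2 and Alox5 (0.755), and the lowest was Ptgs2 with Lta4h (-0.634). The 13 points share libraries, depth and cell makeup, so these values are descriptions. Among 9066 genes, those most like Ptgs2 were Il1b (0.992), Fpr2, Hdc, Ets2 and Dusp1, and those most like Hdc were G0s2 (0.993), Csf3r, Dgat1, Dusp1 and Trem1. Alox5ap was most like Sem1 (0.961), Cd300c2 and Tyrobp, Ltc4s most like Clec10a (0.965), Ptges most like Tpbg (0.941), and Alox5 most like 6430548M08Rik (0.965). Over the classes and libraries with at least 50 cells in place of these clusters, 5 of 5 genes named for each of Ptgs2, Hdc and Alox5ap kept an r within 0.1, 3 of 5 for Ltc4s and Ptgs1, 1 of 5 for Alox5 and Ptges and 0 of 5 for Lta4h, whose list began with Tnnt1 (0.922). For Ptgs1 it began with Hist1h3d (0.915).

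Other genes of the 3 pathways with at least 50 UMIs in neutrophil-like cells are counted here, beside 4051 of all 31053 genes. The highest levels in Smad3-WT and Smad3-KO were those of Fpr2 (400 and 524 CPM) and Cyp4f18 (342 and 364 CPM). Of 26 genes of arachidonic acid release and the prostanoids, 3 had at least 50 UMIs, of which 0 were at least 2-fold higher and 2 at least 2-fold lower in Smad3-KO, beside 7.83% and 15.5% of all 4051 genes. These were the cytosolic prostaglandin E synthase Ptges3 (122 and 59.0 CPM, ratio 0.483) and the prostaglandin E2 receptor Ptger2 (92.2 and 25.4 CPM, 0.275). Of 21 leukotriene and lipoxin genes, 7 had at least 50 UMIs, of which 1 was higher and 2 were lower by 2-fold, against the same shares of all genes. The leukotriene C4 exporter Abcc1 was higher (26.9 and 66.4 CPM, 2.47), and the leukotriene C4-cleaving Ggt5 (49.5 and 15.7 CPM, 0.317) and the leukotriene B4 receptor Ltb4r1 (299 and 105 CPM, 0.352) were lower. The intervals of Ptges3 (0.367 to 0.629), Abcc1 (1.70 to 3.63) and Ggt5 (0.186 to 0.517) also held ratios short of 2-fold. Of 9 histamine genes only Hnmt, which inactivates histamine, had 50 UMIs (40.9 and 24.6 CPM, 0.602). Slc18a2, which loads histamine into granules, had 3 and 1 UMIs over all cells.

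In macrophage or monocyte-like cells 12 of the 26 prostanoid genes had at least 50 UMIs, with 0 higher and 0 lower by 2-fold. Of 9 measured leukotriene genes, 5 were at least 2-fold lower in Smad3-KO, beside the 10.7% of all genes given above. These were Ltb4r1 (221 and 43.5 CPM, 0.197), Mgst3 (0.213), the dipeptidase Dpep2 (0.260), Abcc1 (0.473) and Cyp4f18 (0.499). They rested on few Smad3-KO UMIs, in turn 12, 2, 10, 7 and 11. The intervals of Mgst3 (0.0256 to 0.783), Abcc1 (0.188 to 0.990) and Cyp4f18 (0.247 to 0.904) also held ratios short of 2-fold. Of the 9 histamine genes, 0 had 50 UMIs in that class. Over all cells, 17, 12 and 2 genes of the 3 lists had at least 50 UMIs, with 3, 2 and 0 higher and 2, 4 and 0 lower, beside 13.5% and 14.2% of all 10925 genes.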

How the data were processed

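Single-cell RNA was measured with the 10x 5′ kit in 1 library per genotype, each pooled from 8 tumors. Per the labels and the study's methods, the authors made the deposited raw counts (UMIs per gene and barcode) with Cell Ranger 3.0.2 on mm10 (GRCm38), counting reads on the gene's strand. The authors also deposited averages per library, a signal scaled to a common depth, and averages for 13 clusters, a score whose scale is not stated. Fold change and p columns of the same tables hold their own comparisons and were not used. The barcode suffix was tied to a library by recomputing the library averages from the counts, where the largest difference was 3.58e-08 (Smad3-WT) or 4.91e-09 (Smad3-KO), against 31.8 with the libraries exchanged.

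A cell needed more than 500 and fewer than 20000 UMIs, 200 or more detected genes and a mitochondrial share under 10%, and 382 Smad3-WT and 0 Smad3-KO barcodes lay above that limit. No doublets were removed. Counts were scaled to 10000 per cell and logged, and 2000 variable genes without the 8 genes and 56 pathway genes, 100 principal components and 15 neighbours were used for Louvain clustering at resolution 0.5 (scanpy 1.11.5, igraph 0.11.9, Python 3.11.15). The resolution was chosen after the clusters were seen, since lower values merged carcinoma cells with fibroblasts. A cluster was named when at least 3 markers were found in 10% of its cells at 2-fold the level elsewhere.

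A level is the UMIs of a gene over all UMIs of a class, as CPM, with an exact Poisson interval. A ratio has an exact interval from the binomial split of UMIs, and a share of cells an exact Clopper-Pearson interval (scipy 1.17.1). A count of 0 allows up to 3 UMIs. Genes were counted as 2-fold apart when they had at least 50 UMIs. Genes most like a member were the 5 of at least 200 UMIs with the highest Pearson r over the 13 averages. The members, gene lists and rules were chosen with earlier results of these data known. Alternatives changed the cell filter, clustering, depth, level and scaling, and leaving out shared barcodes was added after the data were seen. The calculations were tested on simulated data.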

Additional observations from a re-analysis of the deposited data

Results flagged for a closer look

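Ratios of Smad3-KO over Smad3-WT were compared for 37 pairs of classes or clusters in which a gene had enough UMIs. In 7 of them the 2 ratios lay on opposite sides of 1 and their intervals did not overlap. In each of these 7, however, 1 of the 2 intervals held 1, so no pair had its 2 intervals on opposite sides of 1. With 1 library per genotype the difference was not tested in any of them. Hdc had a ratio of 0.693 in neutrophil-like and 1.12 in macrophage or monocyte-like cells, of 1.12 in macrophage or monocyte-like and 0.485 in fibroblast-like cells, and of 1.07 in cluster 1 and 0.645 in cluster 3. In macrophage or monocyte-like cells the Hdc level lay inside the range of the neutrophil markers, as given above. The part of free RNA in the Hdc ratios outside neutrophil-like cells was not tested. Alox5ap had a ratio of 1.55 in cluster 1 and 0.588 in cluster 3, the latter against 25 Smad3-WT cells. Lta4h had a ratio of 1.83 in neutrophil-like and 0.528 in dendritic-like cells. Ltc4s had a ratio of 2.15 in macrophage or monocyte-like and 0.453 in fibroblast-like cells, and of 4.06 in dendritic-like cells against the same fibroblast-like value. The ratio of 2.15 depended on the settings, as given above.

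The 382 Smad3-WT barcodes over 20000 UMIs, which the quality filter left out of the main values, held 11374838 UMIs. They had higher levels of 3 members than the kept Smad3-WT cells of all classes together. Ptges stood at 174 CPM (1982 UMIs, in 91.6% of these barcodes), Lta4h at 58.7 CPM and Ptgs1 at 20.9 CPM, against 54.2, 37.5 and 15.2 CPM in the kept cells. In kept LLC carcinoma-like cells of Smad3-WT the levels were nearer, at 124, 40.8 and 19.98 CPM. For Ptgs1 the intervals of these 2 sets overlapped (18.3 to 23.8 and 16.2 to 24.3). The carcinoma marker Krt8 stood at 393 CPM in the 382 barcodes, and Csf3r, the receptor for the neutrophil growth factor G-CSF, at 9.49 CPM. In all kept Smad3-WT cells these stood at 112 and 234 CPM, so the 2 sets differed in cell makeup.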

How the results depend on the processing

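No paired analysis was possible because each genotype has 1 library, and leaving out a replicate was not possible for the same reason. In neutrophil-like cells the Ptges ratio stayed between 5.05 and 11.4 and the Alox5 ratio between 0.285 and 0.560 under 13 alternatives. None of these evened out the unequal makeup of clusters 1 and 3. Within cluster 1 the Alox5 ratio was 1.11 (0.520 to 2.12), and Ptges had 8 Smad3-WT and 0 Smad3-KO UMIs. Without cluster 9 the ratios were 0.588 for Lta4h (a reversal), 1.12 for Ptgs2, 0.285 for Alox5, 0.676 for Alox5ap and 0.748 for Hdc. Scaling to the median of ratios gave 1.09 for Alox5ap (a reversal), 1.26 for Ptgs2, 0.863 for Hdc, and 2 members higher and 0 lower. The Hdc ratio was 0.728 with the MetaCell filter (at least 500 UMIs, mitochondrial share up to 0.2), the Lta4h ratio 1.03 without the 5% of cells with the most UMIs, and the Alox5ap ratio 0.746 with cells thinned to 500 UMIs. In macrophage or monocyte-like cells 0 members were at least 2-fold higher and 0 lower with no upper limit on UMIs, with the MetaCell filter and with another seed. There, 0 were higher among cells with a UMI of the 4 neutrophil markers, 0 were lower with 30 principal components and with totals without mitochondrial and ribosomal protein genes, and 2 were higher and 2 lower when thinned. The Ptgs2 ratio in this class reversed to 0.910 with 30 principal components. Over all cells, 2 were higher and 2 lower with no upper limit and with the MetaCell filter, 0 higher and 3 lower by the mean over cells, and 0 higher without mitochondrial and ribosomal protein genes. Ratios over all cells reversed for Alox5 (1.31 with no upper limit, 1.28 with the MetaCell filter), for Ptges (1.06 among cells with neutrophil markers, 1.52 by the mean over cells), and by that mean for Ptgs2 (0.892) and Hdc (0.625). Over 7 alternatives these ratios ranged from 0.892 to 3.81 for Ptgs2, from 0.625 to 2.73 for Hdc and from 0.290 to 1.52 for Ptges. The cause of these changes was not tested. Leaving out the 73 shared barcode sequences reversed no ratio and changed no count. Ratios on under 20 UMIs in a library, such as those of Ptgs1 and Ltc4s, are limited by depth. This also holds for the Ptges ratios in neutrophil-like cells (8 Smad3-WT UMIs) and macrophage or monocyte-like cells (9 Smad3-KO UMIs).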
